A study of Mus musculus with 46 samples.

Results

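The 10 genes described here present peptides to T cells. Cd74, H2-Aa, H2-Ab1, H2-Eb1 and H2-DMa belong to the class II route of the major histocompatibility complex (MHC), and H2-K1, H2-D1, B2m, Tap1 and Tapbp to the class I route. They were taken by gene symbol from the array's annotation, out of 16593 genes that had a probe with 1 symbol, 10344 of which had a probe above background on at least 1 array. The 10 symbols were carried by 18 probes. Of these, 17 were above background on at least 1 array and were tested, 14 were above it on every array, and the third probe of B2m lay at background on all 46. Each gene is described by its brightest tested probe, and the other probes are given beside it.

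Liver RNA of 46 male C57BL6/J mice aged 8 months was measured on Illumina bead arrays, 1 array per mouse. From 2 months of age, 11 mice were fed ad libitum (AL), 11 were under dietary restriction (DR, a restriction of 40% by the labels, with the methods giving the daily ration in ways that disagree), 12 were fed ad libitum with 14 ppm of microencapsulated rapamycin (Rapa) and 12 received the restricted diet with the same 14 ppm (Rapa + DR). All groups were fed the same base diet for 6 months, and the restricted food was given once a day. The same ppm in less food is less rapamycin per mouse. On liver rapamycin the study disagrees with itself. Its text gives no significant difference between Rapa and Rapa + DR, and a supplementary legend gives a significantly lower level in Rapa + DR. Rapamycin inhibits the mTOR kinase and is used as an immunosuppressant.

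The deposited values are z-scores. The log2 signals of an array had been centred on their mean and divided by their SD. Here they were multiplied by the mean array SD of 1.34, so a level below is a log2 signal at a common spread and a change is a difference of such levels. Array SDs were not alike in the groups, with means of 1.28 (AL), 1.28 (Rapa), 1.38 (DR) and 1.41 (Rapa + DR). Between 30.2 and 45.2% of the probes of an array were above background. A piece of whole liver was used, and 6 of the 8 listed hepatocyte genes were above background on every array, against 7 of 15 for Kupffer cells and macrophages and 0 of 10 for B cells. Of these listed genes 8, 12 and 8 had a probe on the array. In such bulk tissue, fewer cells of a type and less RNA per cell cannot be told apart. The array Rapa + DR replicate 8 stood apart, with the lowest SD of all arrays (1.10), and its part is given below for Tap1 and for the class I mean.

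Class II molecules are pairs of an alpha and a beta chain that show peptides from engulfed material to helper T cells, and in liver they are made mainly by Kupffer cells, dendritic cells and B cells. Class I molecules pair a heavy chain with beta-2-microglobulin, show peptides made in the cytosol to cytotoxic T cells and are made by nearly every cell. Promoters of both kinds share a module in which a complex of RFX factors, CREB and NF-Y is joined by the coactivator CIITA at class II genes and by NLRC5 at class I genes. Interferon gamma induces both.

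That module is shown because it is the sequence that both classes share. RefSeq promoters of build GRCm38.p6, from 250 bases before to 50 bases after the gene start, were searched for 8 of the 10 members. Cd74 and H2-Ab1 were not among them. The motif was spelled after these sequences had been read, as TGANG (part of the X2 box), then 20 to 22 bases, then ATTGG (the Y box, which reads CCAAT on the other strand), searched on both strands. It was in the promoters of 5 members, H2-Aa and H2-Eb1 of class II and H2-K1, H2-D1 and B2m of class I, against 0.956% of all 32851 promoters of the table. ATTGG on either strand was in 37.4% of them, and TGANG in 89.4%. Promoters of H2-DMa, Tap1 and Tapbp held no spaced match, which says only that these letters are not in that window. The 5 stretches follow, read in the direction of the gene, with TGANG and ATTGG in capitals. They lie at chr17:34287859-34287905 (minus strand) for H2-Aa, chr17:34305773-34305820 (plus) for H2-Eb1, chr17:34000351-34000396 (minus) for H2-K1, chr17:35262985-35263030 (plus) for H2-D1 and chr2:122147601-122147646 (plus) for B2m.
H2-Aa: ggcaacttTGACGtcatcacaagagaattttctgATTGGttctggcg
H2-Eb1: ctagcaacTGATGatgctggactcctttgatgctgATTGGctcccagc
H2-K1: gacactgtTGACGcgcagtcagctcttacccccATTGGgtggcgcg
H2-D1: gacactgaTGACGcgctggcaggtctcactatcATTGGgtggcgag
B2m: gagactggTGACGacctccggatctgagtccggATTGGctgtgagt

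H2-K1 and H2-D1 also shared an upstream stretch that holds a match to the NF-kB consensus and TTTCNNTTC, the core of an interferon-responsive element. The stretch is nearly the same in these paralogs, so their matches are not independent, and its part in their levels was not tested. Each motif was searched on both strands, and a promoter with both was found in 0.35% of the table (5.89% for the NF-kB consensus and 7.52% for TTTCNNTTC alone). None of the other members searched had both. In the 46 bases shown, 45 are identical between the genes, while 37 of 46 are identical in their X2 and Y stretches above. The stretches lie at chr17:34000421-34000466 (minus strand) and chr17:35262915-35262960 (plus), with the motifs in capitals. The coding sequences of these paralogs are also much alike, so that a probe of one may bind RNA of the other or of the Q genes.
H2-K1: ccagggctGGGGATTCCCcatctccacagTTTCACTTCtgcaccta
H2-D1: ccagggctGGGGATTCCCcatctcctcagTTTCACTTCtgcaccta

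When compared with AL, Cd74 was down-regulated in DR, Rapa and Rapa + DR, while H2-K1 and H2-D1 were up-regulated in Rapa + DR, where they also lay above DR and Rapa. Calls required an adjusted p (limma, Benjamini-Hochberg over all tested probes) under 0.05 and group medians more than 15% apart. In DR 2 of the 10 genes were called lower (Cd74 and Tap1) and 0 higher, against 7.23% of all 10344 genes called lower and 10.5% higher. In Rapa 1 was called lower (Cd74) and 0 higher, against 6.21% and 8.0%. In Rapa + DR 3 were called lower (Cd74, H2-Eb1 and Tap1) and 2 higher (H2-K1 and H2-D1), against 11.1% and 16.7%. At an unadjusted p under 0.05 there were 4, 4 and 6 genes. The 5 class II genes had median changes of -0.36 (DR), -0.44 (Rapa) and -0.41 (Rapa + DR), the 5 class I genes of -0.24, -0.10 and -0.06, and all genes together of -0.01, -0.01 and -0.00. The 3 comparisons use the same AL mice, so their likeness is not independent.

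**Figure D1:**
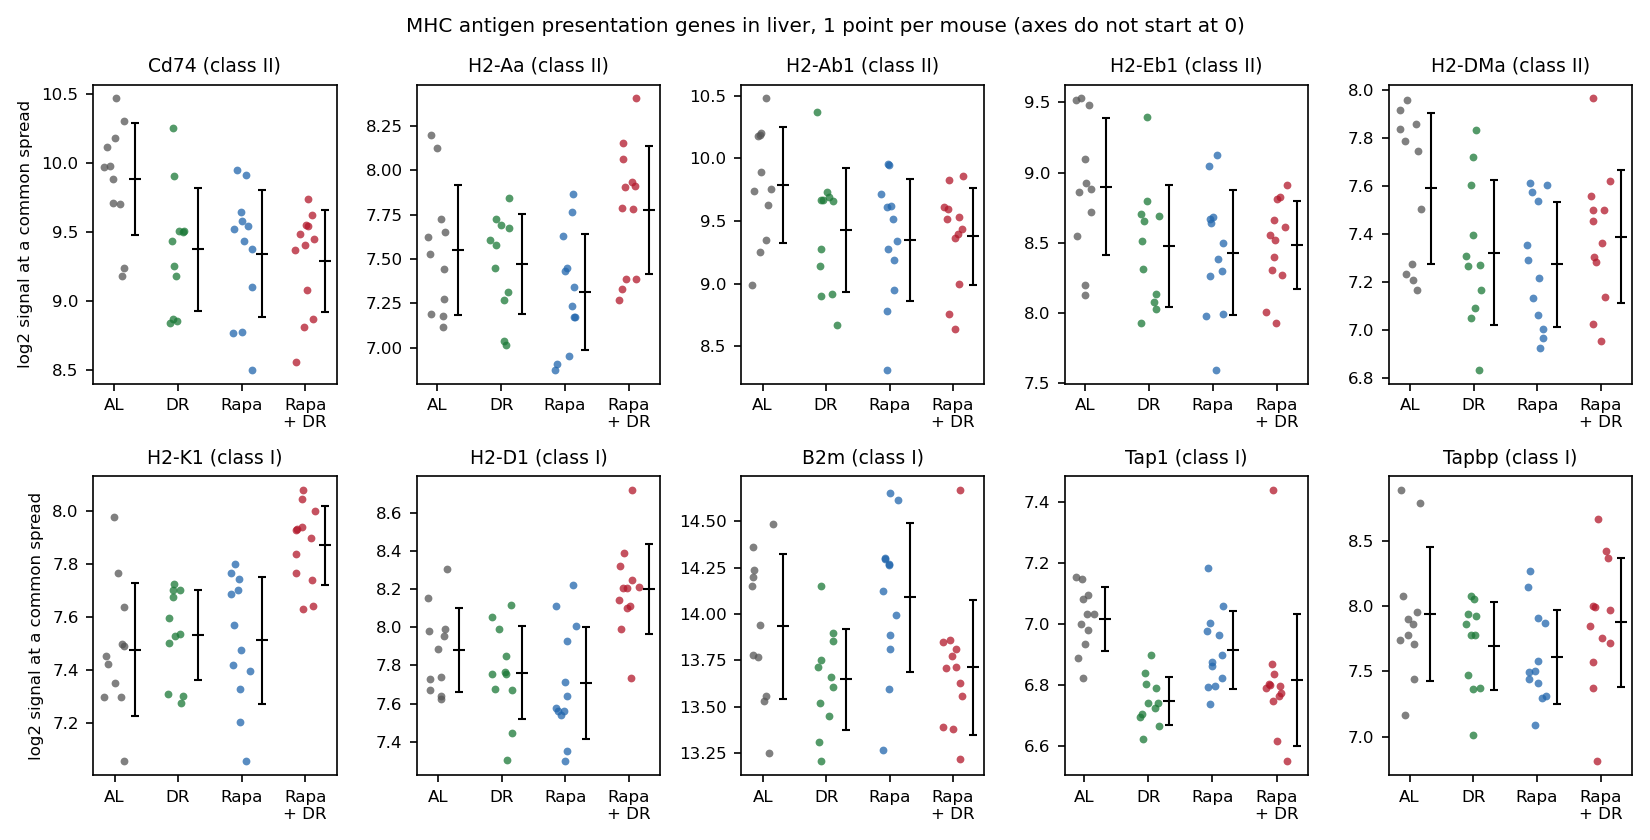
Level of each of the 10 genes (log2 signal at a common spread, y axis; axes do not start at 0) in the 4 groups (x axis), with 1 point per mouse and the group mean ± SD as a black bar beside it (n = 11, 11, 12 and 12). In H2-K1 and H2-D1 the mean of Rapa + DR is the highest, in Cd74 that of AL, and the single high Tap1 point at 7.44 is Rapa + DR replicate 8.

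Cd74 encodes the invariant chain, which fills the groove of new class II molecules and guides them to the endosome. Its lowest, median and highest levels were 9.18, 9.97 and 10.47 in AL, 8.84, 9.43 and 10.25 in DR, 8.50, 9.48 and 9.95 in Rapa, and 8.56, 9.42 and 9.74 in Rapa + DR. The treated groups lay lower than AL but overlapped it, and their medians were close to each other. The change was -0.51 ± 0.18 in DR (± is the standard error throughout; adjusted p = 0.03, with 10 of 11 mice below the AL median), -0.54 ± 0.17 in Rapa (adjusted p = 0.0217, 12 of 12) and -0.59 ± 0.17 in Rapa + DR (adjusted p = 0.00488, 12 of 12), or folds of 0.702, 0.687 and 0.662. The other Cd74 probe, also above background on every array, changed by -0.20, -0.21 and -0.30 and was not called (adjusted p = 0.477, 0.456 and 0.155). The DR call was also lost without any of AL replicates 1, 4 and 9 and DR replicates 5, 6 and 11 (adjusted p between 0.051 and 0.0635), and the Rapa call without Rapa replicate 3 (adjusted p = 0.0506). If arrays were centred but kept their own spread, no Cd74 call was left, at -0.31, -0.52 and -0.34 (adjusted p = 0.302, 0.101 and 0.183).

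H2-Aa and H2-Ab1 encode the alpha and beta chains of I-A, the class II molecule on the surface of C57BL/6 cells. The levels of H2-Ab1 ran from 8.99 over a median of 9.75 to 10.48 in AL, from 8.67 over 9.66 to 10.37 in DR, from 8.31 over 9.43 to 9.95 in Rapa and from 8.64 over 9.48 to 9.86 in Rapa + DR. The groups overlapped over most of their range, and no difference was called for this probe, at -0.36 ± 0.19, -0.44 ± 0.19 and -0.41 ± 0.19 (adjusted p = 0.184, 0.101 and 0.0745). H2-Ab1 has 4 probes. The second was called in Rapa + DR alone (-0.43 ± 0.17, adjusted p = 0.0394), the fourth changed by -0.33, -0.27 and -0.31 without a call, and the third by -0.04, 0.10 and -0.12.

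H2-Aa, the partner chain, had 1 probe. Its lowest, median and highest levels were 7.12, 7.53 and 8.20 in AL, 7.02, 7.58 and 7.84 in DR, 6.88, 7.29 and 7.86 in Rapa, and 7.27, 7.85 and 8.41 in Rapa + DR. Rapa + DR was thus the highest group by its median and Rapa the lowest, with overlapping ranges. None of the changes against AL was called (-0.08 ± 0.14, -0.23 ± 0.14 and 0.23 ± 0.14, adjusted p = 0.753, 0.257 and 0.185), but Rapa + DR was above Rapa by 0.46 ± 0.13 (adjusted p = 0.00802, 11 of 12 mice above the Rapa median). H2-Aa levels moved with the array SD within groups (r = 0.56), and with the array SD as a covariate that difference was 0.24 (adjusted p = 0.144).

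H2-Eb1 encodes the beta chain of I-E, whose alpha chain C57BL/6 mice do not make. Its levels ran from 8.13 over a median of 8.88 to 9.53 in AL, from 7.93 over 8.51 to 9.40 in DR, from 7.59 over 8.44 to 9.13 in Rapa and from 7.93 over 8.54 to 8.91 in Rapa + DR. The treated medians were all lower than that of AL, by 0.34 to 0.44. The changes were -0.42 ± 0.18 (adjusted p = 0.0799), -0.47 ± 0.17 (adjusted p = 0.0509) and -0.42 ± 0.17 (adjusted p = 0.0498), so that the Rapa + DR call sat on the threshold. It was lost on leaving out any of 32 of the 46 arrays, with adjusted p up to 0.102. Quantile normalization called H2-Eb1 lower in all 3 treatments, at -0.47, -0.47 and -0.50 (adjusted p = 0.0342, 0.0346 and 0.0128), as did the array SD as a covariate (adjusted p = 0.039, 0.0418 and 0.0251), whereas centring alone gave no call (-0.29, -0.44 and -0.25).

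H2-DMa encodes a chain of H2-DM, which exchanges the invariant chain's remnant for peptide. Its medians were 7.75 (AL), 7.26 (Rapa), 7.27 (DR) and 7.41 (Rapa + DR), and its ranges 7.17 to 7.96, 6.93 to 7.61, 6.83 to 7.84 and 6.95 to 7.97. The AL median stood above those of the treated groups, and the ranges overlapped. Changes of -0.27 ± 0.12, -0.32 ± 0.12 and -0.20 ± 0.12 were not called (adjusted p = 0.108, 0.054 and 0.168), although 10 of 11, 12 of 12 and 11 of 12 mice lay below the AL median. Quantile normalization of the arrays called H2-DMa lower in all 3 groups, at -0.35, -0.37 and -0.33 (adjusted p = 0.01, 0.00607 and 0.00718).

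H2-K1 and H2-D1 encode the classical class I heavy chains. The lowest, median and highest levels of H2-K1 were 7.05, 7.45 and 7.98 in AL, 7.27, 7.54 and 7.73 in DR, 7.06, 7.52 and 7.80 in Rapa, and 7.63, 7.91 and 8.08 in Rapa + DR. AL, DR and Rapa had nearly the same median, and all 12 Rapa + DR mice lay above each of these medians, with some overlap of the ranges. The change against AL was 0.39 ± 0.08 in Rapa + DR (adjusted p = 0.000225, a fold of 1.31), and 0.06 ± 0.09 in DR and 0.04 ± 0.08 in Rapa (adjusted p = 0.715 and 0.833). Leaving out any array kept the call, with changes between 0.35 and 0.44. The other H2-K1 probe was above background on 22 arrays, and its changes of 0.14 in DR and 0.17 in Rapa + DR had adjusted p = 0.0337 and 0.00451 but medians that differed by less than 15%.

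H2-D1 ran from 7.63 over a median of 7.89 to 8.30 in AL, from 7.31 over 7.76 to 8.12 in DR, from 7.30 over 7.61 to 8.22 in Rapa, and from 7.73 over 8.21 to 8.72 in Rapa + DR. DR and Rapa lay slightly below AL, whereas Rapa + DR lay above it. The change in Rapa + DR was 0.32 ± 0.10 (adjusted p = 0.0115, 11 of 12 mice above the AL median), against -0.12 ± 0.10 in DR and -0.17 ± 0.10 in Rapa (adjusted p = 0.473 and 0.267). H2-D1 moved with the array SD within groups (r = 0.75), and with the array SD as a covariate the change in Rapa + DR was 0.11 (adjusted p = 0.239), while that of H2-K1 was 0.31 (adjusted p = 0.00326).

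Tap1 encodes a subunit of the transporter that carries peptides into the endoplasmic reticulum. Its lowest, median and highest levels were 6.82, 7.03 and 7.16 in AL, 6.62, 6.74 and 6.90 in DR, 6.74, 6.89 and 7.18 in Rapa, and 6.55, 6.79 and 7.44 in Rapa + DR. All 11 DR mice lay below the AL median, and most Rapa + DR mice did too, with replicate 8 far above the rest of its group. Tap1 fell by 0.27 on the log2 scale in DR (SE 0.06, adjusted p = 0.00102) and by 0.20 in Rapa + DR (SE 0.06, adjusted p = 0.00649), and its change in Rapa was -0.10 ± 0.06 (adjusted p = 0.262). Without Rapa + DR replicate 8 the change in that group was -0.26 (adjusted p = 1.23e-05). The probe is dim, and as no background was subtracted, its values understate changes in RNA.

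Tapbp encodes tapasin, which holds empty class I molecules beside the transporter. It spread more widely within groups than the heavy chains did, from 7.17 to 8.89 in AL, 7.02 to 8.08 in DR, 7.09 to 8.27 in Rapa and 6.81 to 8.66 in Rapa + DR, with medians of 7.86, 7.78, 7.50 and 7.91. No difference was called for either Tapbp probe, and the changes of the brighter were -0.24 ± 0.18, -0.33 ± 0.18 and -0.06 ± 0.18 with 95% intervals of -0.61 to 0.12, -0.68 to 0.03 and -0.42 to 0.29. The other Tapbp probe changed by 0.04, 0.00 and 0.07 (adjusted p = 0.826, 0.985 and 0.629). The brighter probe moved inversely with the array SD (r = -0.69 within groups). With the array SD as a covariate it was lower in Rapa than in AL (-0.35, adjusted p = 0.0438) and higher in Rapa + DR than in Rapa (0.61, adjusted p = 0.000674).

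B2m encodes beta-2-microglobulin, the light chain of class I molecules. Its levels ran from 13.25 over a median of 13.94 to 14.49 in AL, from 13.21 over 13.66 to 14.15 in DR, from 13.27 over 14.19 to 14.65 in Rapa and from 13.22 over 13.71 to 14.67 in Rapa + DR. The restricted groups lay lower than the others at this common spread. Against AL the changes were -0.29 ± 0.15, 0.16 ± 0.15 and -0.22 ± 0.15, none of them called (adjusted p = 0.183, 0.528 and 0.234). The second B2m probe changed by -0.32, 0.11 and -0.22, also without a call (adjusted p = 0.114, 0.674 and 0.226). The first probe is among the bright ones, and its level moved inversely with the array SD in every group (r between -0.85 in DR and -0.97 in Rapa + DR, and -0.93 over the 46 mice). The sign of its change against AL turned with the scaling. In Rapa + DR it was 0.26 after quantile normalization (adjusted p = 0.000362) and 0.42 on arrays that were centred only (adjusted p = 0.00432), both called higher. No direction for B2m is read from these arrays.

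**Figure D2:**
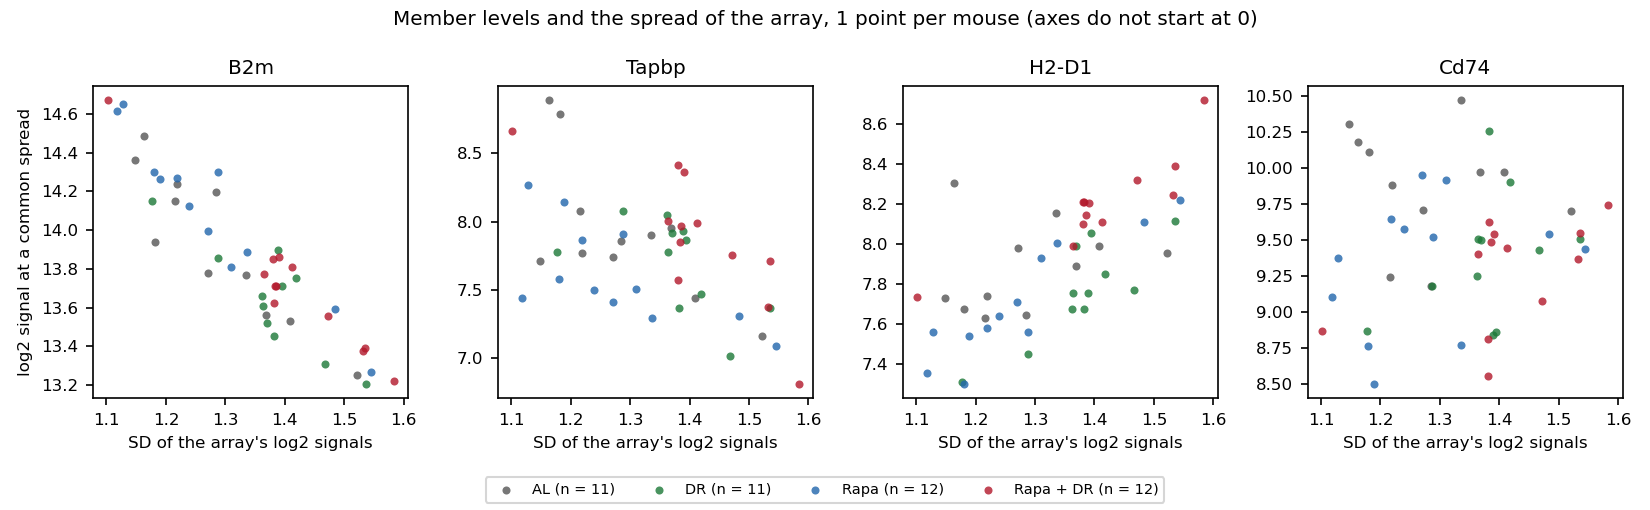
Level of B2m, Tapbp, H2-D1 and Cd74 (log2 signal at a common spread, y axis; axes do not start at 0) against the SD of the array's log2 signals (x axis), with 1 point per mouse coloured by group. B2m falls along the x axis (r = -0.93 within groups) and Tapbp less steeply (r = -0.69), H2-D1 rises (r = 0.75) and Cd74 has no clear slope (r = 0.25).

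**Figure D3:**
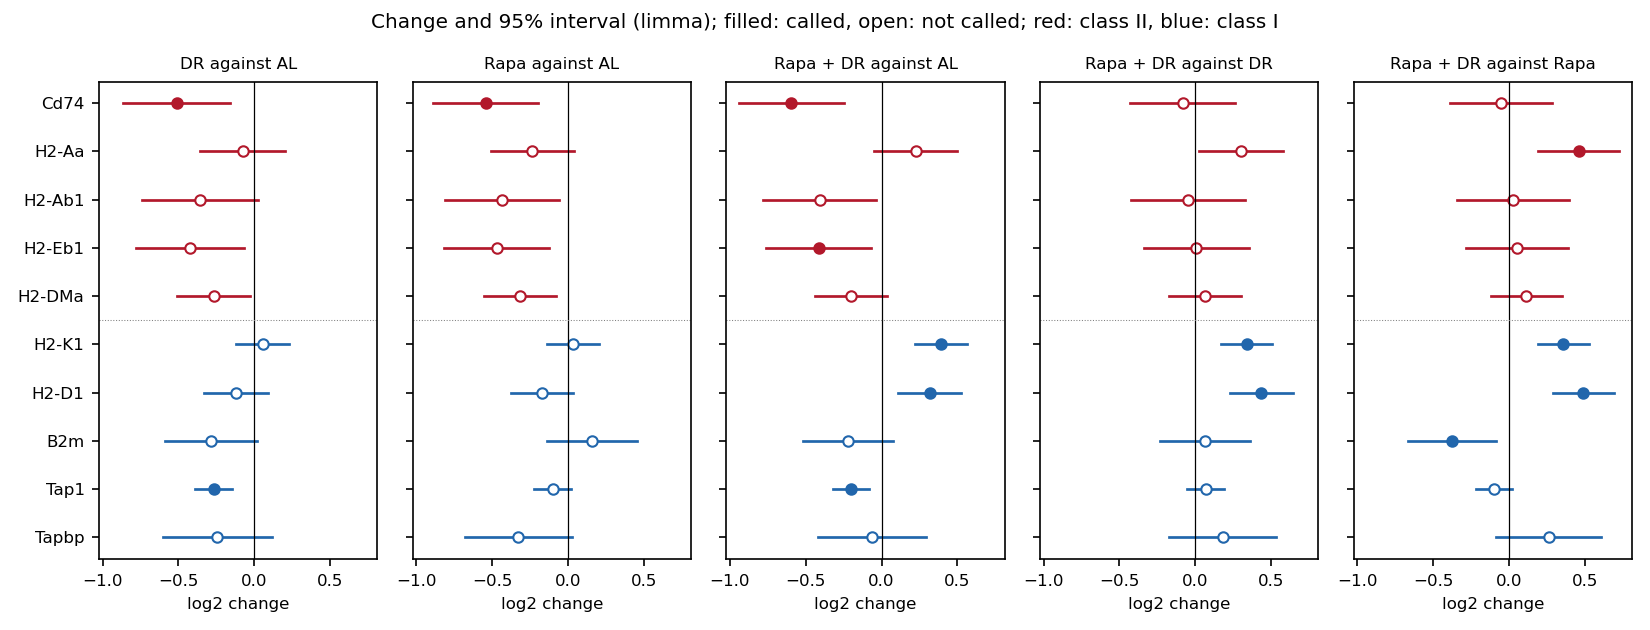
Log2 change (x axis) of each gene (y axis) with its 95% interval from limma in 5 comparisons, class II in red and class I in blue, filled where called and open where not. Cd74 lies below 0 in each treatment against AL, and H2-K1 and H2-D1 lie above 0 where Rapa + DR is compared with AL, DR or Rapa.

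The direct comparisons of the treatments asked what rapamycin added to restriction and the reverse, at the same ppm in the food and not at a matched liver level. H2-K1 and H2-D1 were higher in Rapa + DR than in DR, by 0.34 ± 0.08 (adjusted p = 0.0171, 12 of 12 mice above the DR median) and 0.44 ± 0.10 (adjusted p = 0.0115, 11 of 12). The dimmer H2-K1 probe differed by 0.03 from DR (adjusted p = 0.814) and by 0.11 from Rapa (adjusted p = 0.0681), and for the mean of both probes the difference from DR was 0.18 (adjusted p = 0.022) with medians less than 15% apart, which is no call. These 2 were the members called higher and 0 were called lower, against 1.81% and 0.406% of all genes. They were also higher than in Rapa, by 0.36 ± 0.08 (adjusted p = 0.000947) and 0.49 ± 0.10 (adjusted p = 0.000218), with all 12 mice above the Rapa median for each. With H2-Aa, 3 members were called higher and 1 (B2m) lower in Rapa + DR than in Rapa, against 11.4% and 6.61% of all genes. Cd74, by contrast, differed from DR by -0.08 (95% interval -0.43 to 0.26) and from Rapa by -0.05 (-0.39 to 0.29), and the intervals of H2-Ab1 and H2-Eb1 were as wide, so that moderate differences of these class II genes between treatments were not detectable. DR against Rapa gave 0 members higher and 1 lower (B2m, at -0.44 ± 0.15, adjusted p = 0.0345), against 6.96% and 4.8%. The second B2m probe was called there too (-0.43, adjusted p = 0.0343) but not between Rapa + DR and Rapa (-0.33, adjusted p = 0.074). The B2m differences from Rapa turned sign on arrays that were centred only (0.10 for DR and 0.32 for Rapa + DR).

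The interaction is the effect of rapamycin in restricted mice minus that in AL mice, called on adjusted p alone. H2-D1 had an interaction of 0.61 ± 0.14 (adjusted p = 0.0177). Rapamycin changed its level by -0.17 in AL mice and by 0.44 in DR mice. It was the 1 member called, higher, with 0 lower, against 1.25% of all genes in each direction. The value was 0.54 with the array SD as a covariate (adjusted p = 0.000884) and 0.63 on arrays that were centred only, where it was not called (adjusted p = 0.0999). The interactions of the other members lay between -0.09 for B2m and 0.54 for H2-Aa, and those of the 5 class II genes between 0.38 and 0.54 with adjusted p of at least 0.113. That of H2-K1 was 0.30 ± 0.12 (adjusted p = 0.152).

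Each class was also averaged per mouse, as the mean deviation of its 5 genes from their AL means. The class II mean had a median of 0.07 in AL (from -0.59 to 0.58), -0.30 in DR (-0.80 to 0.37), -0.33 in Rapa (-1.09 to 0.09) and -0.19 in Rapa + DR (-0.87 to 0.23). It was below the AL mean in 10 of 11 DR, 10 of 12 Rapa and 10 of 12 Rapa + DR mice, and in 4 of 11 AL mice. The class I mean had a median of -0.03 in AL (from -0.26 to 0.39), -0.15 in DR (-0.41 to -0.05), -0.09 in Rapa (-0.23 to 0.06) and 0.01 in Rapa + DR (-0.14 to 0.38), and it was below the AL mean in 11 of 11 DR, 9 of 12 Rapa, 4 of 12 Rapa + DR and 7 of 11 AL mice. It holds B2m, whose direction turned with the scaling, and its highest value in Rapa + DR was that of replicate 8. Class II minus class I was negative in 6 of 11 DR, 9 of 12 Rapa, 10 of 12 Rapa + DR and 5 of 11 AL mice, with medians of -0.15, -0.31, -0.23 and 0.05.

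From mouse to mouse the class II genes moved as a block. Over 46 mice, as deviations from group means, their 10 pairs had Pearson's r between 0.71 (H2-Aa with H2-Ab1) and 0.95 (H2-Ab1 with H2-Eb1), with a median of 0.82, and all 10 passed in r and in Spearman's rho (permutation tests, two-sided, adjusted over the 45 pairs of members). For Cd74 with H2-Eb1 r was 0.91 and rho 0.89 (permutation p = 1e-05, the smallest these permutations can give, adjusted p = 3.46e-05 and 4.09e-05), it was 0.90 without the 2 mice farthest from the median of Cd74, and between 0.90 and 0.93 within each group. The class II pairs kept r between 0.70 and 0.94 after quantile normalization. Class I had no such block, as its 10 pairs ran from -0.68 (H2-D1 with B2m) to 0.70 (B2m with Tapbp). These values moved to 0.07 and -0.20 after quantile normalization, so their signs depend on the scaling. H2-K1 with H2-D1 had r = 0.34 and rho = 0.34 (permutation p = 0.027 and 0.0283, adjusted p = 0.0513 and 0.051). The r of this pair was -0.18 within AL and 0.51 to 0.55 within the other groups. After quantile normalization its r was -0.0043 and its rho 0.04. Between the classes 8 of 25 pairs passed, 5 positive and 3 negative. The highest were H2-Aa with H2-D1 (r = 0.66, rho = 0.61) and H2-DMa with H2-D1 (r = 0.60, rho = 0.59). They had r of 0.53 and 0.43 after quantile normalization and still passed. The negative pairs were H2-DMa and H2-Aa with B2m (-0.50 and -0.49) and H2-DMa with Tapbp (-0.36). After quantile normalization these had r of 0.15, 0.17 and -0.19, and none passed. Tap1 followed H2-Ab1 (r = 0.49, rho = 0.61, permutation p = 0.0002 and 6e-05, adjusted p = 0.0006 and 0.000169, 0.49 without the 2 farthest mice and 0.41 to 0.72 within groups) and H2-Eb1 (r = 0.44, rho = 0.62, permutation p = 0.00066 and 5e-05, adjusted p = 0.00175 and 0.00015, 0.38 without the 2 farthest mice and 0.12 to 0.76 within groups).

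**Figure D4:**
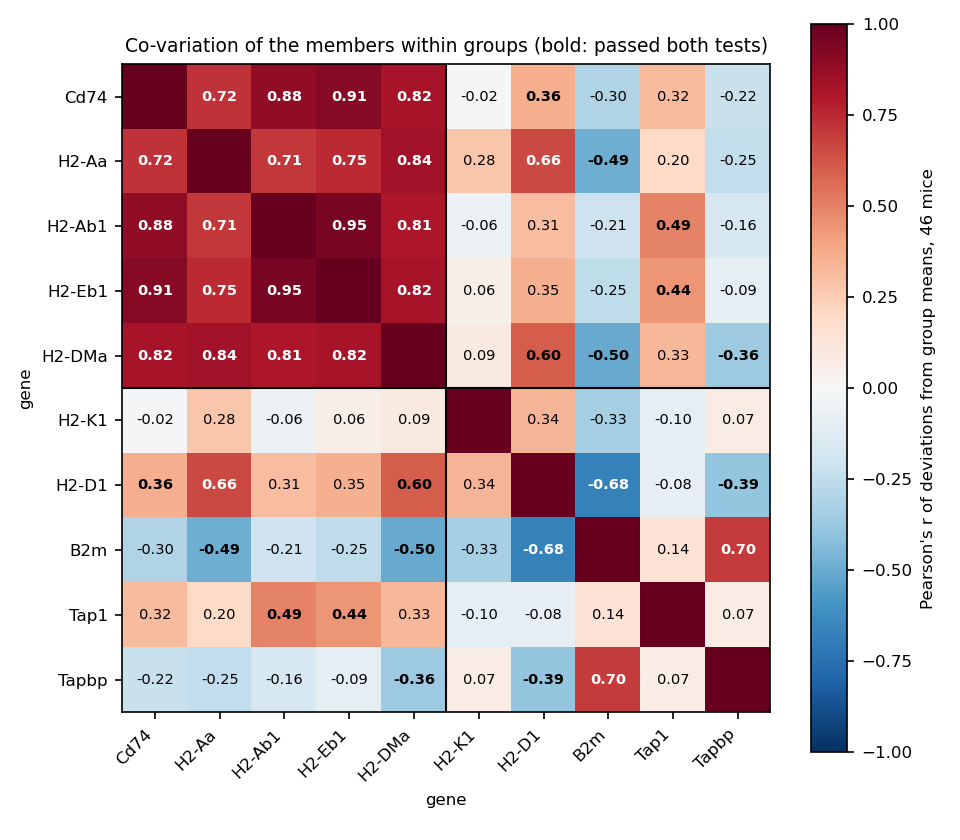
Pearson's r of each pair of genes (rows and columns, class II first) over 46 mice, as deviations from group means, with the value in each cell and the colour from blue (-1) to red (1). Bold cells passed in r and rho after adjustment over the 45 pairs. The class II corner is red throughout (0.71 to 0.95), and the class I corner holds values from -0.68 to 0.70.

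Of 20 further genes of the class II route 14 were tested, and 2 were called higher and 0 lower in DR, 0 and 0 in Rapa (2 at an unadjusted p under 0.05 in limma), and 0 and 1 in Rapa + DR, with median changes of -0.02, -0.01 and -0.03. Only 3 of the 14 were above background on every array, so changes of the dim ones may be understated. Beside this and the later lists, 10.5% of all genes were called higher and 7.23% lower in DR. These shares were 8.0 and 6.21% in Rapa, and 16.7 and 11.1% in Rapa + DR. Legumain (Lgmn), an endosomal protease, rose by 0.36 ± 0.13 in DR (adjusted p = 0.0407), and Rfxap, a subunit of the RFX complex, by 0.23 ± 0.08 (adjusted p = 0.026). Both calls were lost after quantile normalization (0.29 and 0.16, adjusted p = 0.124 and 0.0721), and that of Rfxap also with the array SD as a covariate (0.13, adjusted p = 0.107). Rfxank, another RFX subunit, fell by 0.26 in Rapa + DR (SE 0.04, adjusted p = 1.22e-06). Ciita was above background on only 5 arrays, and its change in Rapa + DR was -0.08 (adjusted p = 0.0622).

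Of 12 further genes of the class I route 10 were tested, with 1 higher and 3 lower in DR, 2 and 1 in Rapa, and 2 and 2 in Rapa + DR. The shares of all genes were 10.5 and 7.23%, 8.0 and 6.21%, and 16.7 and 11.1%. The subunits of the proteasome activator PA28 went opposite ways. Psme2 rose in all 3 treatments, by 0.55 ± 0.09, 0.53 ± 0.08 and 0.74 ± 0.08 (adjusted p = 4.44e-06, 2.05e-05 and 2.28e-09), and Psme1 fell by 0.28, 0.44 and 0.43 (SE 0.09 each, adjusted p = 0.0202, 0.000348 and 0.000128). On arrays that were centred only, the Psme2 calls remained and those of Psme1 did not (-0.00, -0.44 and -0.07). In DR Psmb9, a catalytic subunit of the immunoproteasome, fell by 0.52 (SE 0.13, adjusted p = 0.00325) and Tap2, the partner of Tap1, by 0.29 (SE 0.10, adjusted p = 0.0349). The Tap2 call was lost with centring alone (-0.19, adjusted p = 0.161) and with the array SD as a covariate (-0.24, adjusted p = 0.0798). Psmb10, another catalytic subunit, rose by 0.39 ± 0.12 in Rapa + DR (adjusted p = 0.00754, with medians less than 15% apart after quantile normalization), where the thiol oxidoreductase Pdia3 of the loading complex fell by 0.35 (SE 0.12, adjusted p = 0.0213), which centring alone turned to 0.04 (adjusted p = 0.824). Calreticulin (Calr), a chaperone of that complex, rose by 0.68 ± 0.13 in Rapa (adjusted p = 0.00022). Nlrc5 changed by 0.18 in Rapa + DR (adjusted p = 0.204).

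Other class I heavy chains and relatives were represented by 14 tested genes of 23 listed. They gave 3 higher and 0 lower in DR, 2 and 1 in Rapa, and 4 and 1 in Rapa + DR, with medians of 0.04, 0.01 and 0.08. The shares of all genes were 10.5 and 7.23%, 8.0 and 6.21%, and 16.7 and 11.1%. Cd1d1, which presents lipids to natural killer T cells, rose by 0.71 ± 0.17, 0.82 ± 0.16 and 0.69 ± 0.16 (adjusted p = 0.00127, 0.000328 and 0.000635) and H2-Q8 by 0.44 ± 0.11, 0.41 ± 0.11 and 0.57 ± 0.11 (adjusted p = 0.00293, 0.00617 and 4.19e-05). H2-Q7 rose in Rapa + DR by 0.35 ± 0.10 (adjusted p = 0.00497). The Q genes are near copies of each other, so their probes may share signal. Fcgrt, the heavy chain of the neonatal Fc receptor, which also binds beta-2-microglobulin, fell by 0.36 in Rapa and 0.50 in Rapa + DR (SE 0.10 each, adjusted p = 0.00902 and 7.36e-05), but was at -0.36 and -0.05 without a call on arrays that were centred only. Of 12 genes of the interferon gamma axis 9 were tested, with 2, 2 and 3 higher in DR, Rapa and Rapa + DR and 0 lower in each, against the same shares of all genes. The kinase Jak2 rose by 0.35 ± 0.08, 0.32 ± 0.08 and 0.44 ± 0.08 (adjusted p = 0.000646, 0.00233 and 7.28e-06). Irf2 rose in Rapa and Rapa + DR, by 0.53 and 0.60 (adjusted p = 0.0205 and 0.00359), and Ifngr1 in DR and Rapa + DR, by 0.22 and 0.30 (adjusted p = 0.0106 and 0.000201). Centring alone ended the Irf2 call in Rapa, and quantile normalization the Ifngr1 call in DR. The interferon target Gbp2 changed by 0.15 in Rapa + DR (adjusted p = 0.384). Gbp2 and the rest of the list were not called against AL.

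**Figure D5:**
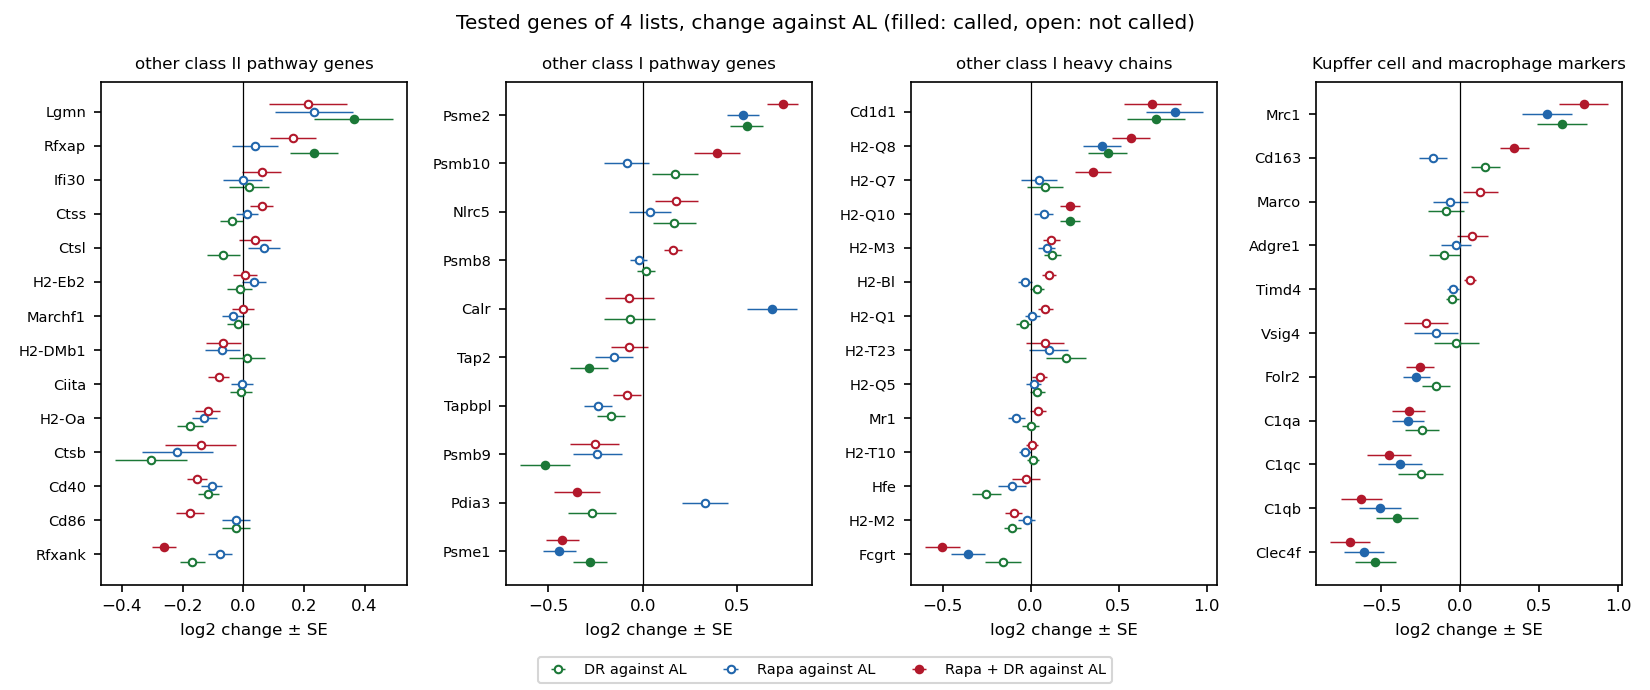
Log2 change ± SE against AL (x axis) of the tested genes (y axis) of 4 lists, in DR (green), Rapa (blue) and Rapa + DR (red), filled where called and open where not. Most of the further class II genes sit near 0, and only 3 of these 14 were above background on every array. The class II members are not in this figure. Psme2 and Cd1d1 lie to the right and Psme1, Fcgrt, Clec4f and C1qb to the left in the treatments.

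Markers of the cells that carry class II moved with these results in part. Of 11 tested Kupffer cell and macrophage markers (15 listed) 1 was called higher and 2 lower in DR, 1 and 5 in Rapa, and 2 and 5 in Rapa + DR, with medians of -0.10, -0.17 and -0.22. The shares of all genes were 10.5 and 7.23%, 8.0 and 6.21%, and 16.7 and 11.1%, and the counts of higher markers lay near them. Clec4f, the Kupffer cell lectin, fell by 0.54, 0.61 and 0.70 (SE 0.13 each, adjusted p = 0.00188, 0.000598 and 2.13e-05) and the complement chain C1qb by 0.40, 0.51 and 0.63 (SE 0.13 each, adjusted p = 0.0263, 0.00486 and 0.000168). Both also fell after quantile normalization and with the array SD as a covariate, and centring alone ended 1 of these 6 calls (C1qb in DR, at -0.25). C1qc, C1qa and Folr2 were called lower in Rapa (-0.39, -0.33 and -0.28) and in Rapa + DR (-0.45, -0.33 and -0.26), but not in DR. The rest of the list was not called lower. Adgre1, Vsig4, Timd4 and Marco were not called in any treatment, with Timd4 above background on 25 arrays and Marco on 16. Cd163 rose by 0.34 ± 0.09 in Rapa + DR (adjusted p = 0.00215), which was no call after quantile normalization (0.20). In DR and Rapa it was not called (0.16 and -0.17). The mannose receptor Mrc1, which sinusoidal endothelium also makes, rose by 0.64 ± 0.16, 0.55 ± 0.16 and 0.78 ± 0.16 (adjusted p = 0.00267, 0.011 and 9.73e-05). All 10 listed markers of that endothelium were tested, against the same shares of all genes. In DR 1 was called higher (Fcgr2b at 0.44) and 0 lower. In Rapa 0 were called higher and 3 lower (Stab2 at -0.41, Clec4g at -0.33 and Stab1 at -0.22). In Rapa + DR 2 were called higher (Fcgr2b at 0.48 and Tek at 0.44) and 1 lower (Clec4g at -0.37, no call after quantile normalization). Centring alone left Stab2 as the single call of these 3 in Rapa, and the part of the endothelium in the class II changes was not tested. The mean level of the Kupffer cell list ran from 7.60 to 8.12 in AL, 7.09 to 7.97 in DR, 7.39 to 7.91 in Rapa and 7.22 to 7.99 in Rapa + DR. Within groups this mean followed all 5 class II genes, with r from 0.42 for H2-Ab1 to 0.57 for H2-DMa. For Cd74 r was 0.54 and rho 0.57 (permutation p = 0.00019 and 0.00012, adjusted p = 0.0015 and 0.0009 over the 60 relations of members to marker lists and array measures, and r = 0.57 without the 2 mice farthest from the median of Cd74). The class I genes had r between -0.36 and 0.46 with it and none passed in both r and rho. H2-D1, at r = 0.46 and rho = 0.36 (permutation p = 0.0022 and 0.0178), passed in r alone (adjusted p = 0.0132 and 0.0764). The part of the Kupffer cell markers in the class II changes was not tested.

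B cell and dendritic cell genes were near background. Of 10 B cell markers 5 were tested, Cd79b being above background on 13 arrays and the others on at most 4, and none was called (1, 2 and 0 genes at an unadjusted p under 0.05 in limma). The mean level of that list lay between 6.32 and 6.56 in all groups. Of 10 dendritic cell markers 4 were tested and 1, the integrin Itgae, was lower in both restricted groups, by 0.26 and 0.28 (SE 0.05 each, adjusted p = 0.000153 and 1.08e-05), with list means from 6.32 to 6.70. T and NK cell markers, 7 tested of 14, gave 0 calls in each treatment (1, 1 and 2 at an unadjusted p under 0.05). A moderate change in B cells was not detectable at these signals. No class II gene passed against the means of these lists. Of 9 listed genes expressed in all leukocytes 8 were tested, with median changes of -0.02, -0.07 and -0.03. In DR 1 was called higher and 1 lower, in Rapa 1 and 1, and in Rapa + DR 0 and 1, against the same shares of all genes as the lists above. Laptm5 fell in all 3 treatments, by 0.38, 0.40 and 0.56 (SE 0.14 each, adjusted p = 0.0447, 0.0366 and 0.000925). Lcp1 rose in DR and Rapa, by 0.22 and 0.28 (SE 0.08 each, adjusted p = 0.0419 and 0.00813). The rest of the list was not called against AL. Centring alone ended all 3 Laptm5 calls (-0.17, -0.39 and -0.31, adjusted p = 0.43, 0.0842 and 0.0808), quantile normalization the one in Rapa (adjusted p = 0.0511) and the array SD covariate the one in DR (adjusted p = 0.0713). The Lcp1 call in DR was lost under these last settings (adjusted p = 0.176 and 0.0502).

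The probes whose levels followed Cd74 most closely within groups, of all tested, were members first, with r of 0.91 for H2-Eb1, 0.91, 0.88 and 0.86 for 3 probes of H2-Ab1 and 0.82 for H2-DMa over the 46 mice. After them came H2-DMb1, the partner of H2-DMa (0.76), the interferon-inducible GTPase Gbp2b (0.74) and Pld4 (0.73). Their changes in Rapa + DR were -0.07, 0.04 and -0.33. The probes most like H2-K1 were of other kinds, Aifm1 (0.76), Pank1 (0.76), Metap2 (0.71), Prkag2 (0.71), Mlycd (0.71), Ube2q2 (0.69), Serbp1 (0.69) and Zhx1 (0.68), and none of them belongs to the antigen presentation lists.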

How the data were processed

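Per the study's methods, Illumina Mouse Ref8 arrays were read with Genome Studio, and the deposited value is a score per probe and array (a z-transformation), which the authors made from log2 signals. Another 92 deposited columns of signals and detection p-values carry sample numbers that match no label, and were not used. The scanner's signals come in steps of 0.1, which let the mean and SD of each array be recovered (on every array, 100% of signals came out whole within a tolerance of 0.05 steps). Scores were multiplied by the mean SD (1.34). No background was subtracted. The background limit of an array left a share of 0.02 of its estimated dim signals above it, and the 14799 probes brighter than that on 1 or more arrays entered limma 3.58.1 in R 4.3.3 (lmFit and eBayes, 4 groups, Benjamini-Hochberg over all tested probes). Of 25697 probes 23978 carried 1 symbol, and 1719 carried none or more than 1. Each mouse had 1 array, so precision is set by how many arrays there are. The p-values of limma set group differences against the spread between these mice, in which variation of animals and of arrays cannot be told apart.

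Correlations used deviations from group means and 100000 permutations within groups. Tests were tried on simulated data first. Python 3.11.15, NumPy 2.4.6, SciPy 1.17.1, pandas 2.3.3 and matplotlib 3.10.9 were used. Named were all members by every probe, up to 4 called genes of a list per comparison, and the 8 probes most like Cd74 and H2-K1. A few uncalled regulators (Ciita, Nlrc5, Gbp2) were named after their values were seen. The members and lists were chosen with earlier results of these data known. Alternatives were quantile normalization, centring without division by the SD, other filters and thresholds, array weights, the background level or the SD of the array as a covariate, only the groups compared, the methods' pairwise comparison, the mean of a gene's probes, a replicate block, and leaving out each array. The covariate of array SD and the arrays left out in turn were chosen after seeing the data.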

Additional observations from a re-analysis of the deposited data

Results flagged for a closer look

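The effect of rapamycin on H2-D1 differed between restricted and AL mice by the test of the difference itself, with an interaction of 0.6077 on the log2 scale (adjusted p = 0.0177 in limma). Without any 1 array it lay between 0.56 and 0.65, with adjusted p between 0.00803 and 0.0289.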

How the results depend on the processing

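Counts of the 10 genes called often moved with the processing. Against AL, DR had 2 genes called, 4 after quantile normalization or with the array SD as a covariate, 1 with centring alone, the mean of a gene's probes or medians over 30% apart, and 0 at an adjusted p under 0.001. Rapa had 1, but 4 under quantile normalization or the array SD covariate, 3 with array weights or probes above background on at least 12 arrays, and 0 with centring alone, the background covariate, the mean of probes or an adjusted p under 0.001. Rapa + DR had 5, 7 after quantile normalization (with H2-DMa lower and B2m higher), 6 with array weights or either covariate, 4 with centring alone, no filter or the unmoderated comparison, 2 at medians over 30% apart and 1 at an adjusted p under 0.001. Against DR it had 2, 3 after quantile normalization, 1 (H2-D1) with the mean of probes or medians over 30% apart, and 0 at an adjusted p under 0.001, and against Rapa 4, and 2 at that limit. DR against Rapa had 1, and 0 under quantile normalization, centring alone, no filter, either covariate or an adjusted p under 0.001. The interaction had 1, 2 with either covariate, and 0 with centring alone or an adjusted p under 0.001. The B2m difference between Rapa + DR and Rapa turned to 0.0905 (quantile), 0.317 (centring alone) and 0.0131 (array SD), and that between DR and Rapa to 0.0996 (centring alone). The cause was not tested. Leaving out each array gave 1 to 4 genes for DR, 0 to 4 for Rapa and 4 to 6 for Rapa + DR against AL, 2 for Rapa + DR against DR, 3 to 4 against Rapa, 0 to 1 for DR against Rapa and 1 for the interaction. B2m lost its call in 14 of these 46 fits for Rapa + DR against Rapa and in 10 for DR against Rapa. The calls of H2-K1, H2-D1 and Cd74 in Rapa + DR and of Tap1 held in all 46. Correlations of members with marker lists and array measures passed in 12 relations, and in 30 with centring alone. Replicate numbers do not pair the mice (67 same-number pairs had a mean r of -0.0086, and 4 of 46 arrays were most like one of their own number). A replicate block gave 2, 1, 4, 2, 4, 1 and 1 genes in the order above, and ended the H2-Eb1 call in Rapa + DR (adjusted p = 0.0555). Of all genes called, the share that was higher against AL was 59.3% (DR), 56.3% (Rapa) and 60.1% (Rapa + DR), but 46.1, 48.1 and 46.5% after quantile normalization and 77.6, 59.5 and 74.6% with centring alone. For Rapa + DR against DR it was 81.7% (67.5 and 98.1%), against Rapa 63.2% (50.9 and 79.2%), for DR against Rapa 59.2% (51.4 and 80.2%) and the interaction, even at first, gave 47.5 and 83.9%. Dim probes, such as those of Tap1 and of B cell genes, are limited by signal close to background.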
